A study of Mus musculus with 6 samples.

Results

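The transcripts described here encode the 5 NF-κB subunits (Nfkb1, Nfkb2, Rel, Rela and Relb), 3 cytoplasmic inhibitors (Nfkbia, Nfkbib and Nfkbie) and 2 nuclear IκB proteins (Nfkbiz and Bcl3). They were taken by symbol from a table of 54532 genes in primary mouse bone-marrow-derived macrophages (BMDMs), which gave 10 genes, and all 10 passed the filter on low values (at least 1 TPM, a read share corrected for transcript length, in at least 2 libraries) that left 12755 genes to test. The BMDMs came from wild-type C57BL/6 mice and fell into an untreated group, a group exposed for 2 h to LPS at 100 ng/ml (LPS), and a group that received metformin at 5 mM for 6 h before the same LPS exposure (Met + LPS). Each of the 3 groups had 2 RNA-seq libraries, and no library of cells given metformin alone was analysed here. The authors state that the cells were seeded in duplicate, but not that the libraries of a group came from separate mice, and the labels do not say so. The p-values thus measure only the spread between these libraries, which may be technical.

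NF-κB is a family of dimeric transcription factors that drive the inflammatory response of macrophages. In resting cells the dimers are held in the cytoplasm by IκB proteins. LPS, a bacterial cell-wall component, signals through Toll-like receptor 4 to the IκB kinase, the inhibitors are phosphorylated and degraded, and freed dimers enter the nucleus. The genes for several subunits and inhibitors are themselves NF-κB targets, and the newly made inhibitors end the response. The nuclear IκB proteins do not retain dimers in the cytoplasm but bind p50 or p52 dimers on DNA and alter transcription of selected genes.

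Libraries held 25457016 to 30762755 reads on genes, recovered from the TPM values, and each library summed to 1000000 TPM. All 9 macrophage markers examined (Adgre1, Cd68, Csf1r and others) had a mean of at least 1 TPM. Their summed level ranged from 45077 to 47078 TPM in untreated, from 38034 to 38500 TPM in LPS and from 31301 to 31368 TPM in Met + LPS libraries. Most of the sum was Lyz2 (lysozyme), at 33981 and 35844 TPM in untreated, 26974 and 26696 TPM in LPS and 21203 and 21381 TPM in Met + LPS libraries. Cd14, Spi1 and Adgre1 were instead higher in both LPS than in both untreated libraries, Cd14 at 911.2 and 998.2 against 2639 and 2886 TPM. The part of these differences in the results below was not tested. Of the other cell types examined, neutrophil markers summed to 20.5 to 21.5 TPM in untreated libraries. Their sum was 9.53 to 15.0 TPM in LPS and 21.2 to 22.0 TPM in Met + LPS libraries. Most of it was Elane, at 15.2 and 17.4 TPM in untreated, 6.27 and 11.0 in LPS and 15.2 and 16.1 in Met + LPS. Ngp and Mpo were above 1 TPM in every library, while Ly6g, a defining marker, was at 0 in 5 of the 6 libraries. The lists for dendritic, B, T and NK, stromal, erythroid and mast cells each summed to at most 7.05 TPM in any library. In bulk RNA, fewer cells of a type and less RNA per cell cannot be told apart.

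To show the regulatory sequence at which these genes start, promoter windows were read for the members that have one in RefSeq (build GRCm38.p6). These were 7 of the 10 (all but Nfkb1, Relb and Nfkbiz). Windows of 300 bases, from 250 before to 50 after each annotated start, were searched on both strands for the κB consensus, the 10-letter element that NF-κB dimers bind. The letters from 130 before to 20 after the start are shown 5′ to 3′ on the gene's strand, with matches in capitals, and for Nfkb2 the window of the first of 3 annotated starts is shown.
Nfkb2 (chr19:46304607-46304756, plus strand): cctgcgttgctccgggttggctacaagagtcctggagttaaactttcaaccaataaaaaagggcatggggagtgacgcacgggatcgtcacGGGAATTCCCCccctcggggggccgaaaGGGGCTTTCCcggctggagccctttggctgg
Rel (chr11:23770950-23771099, minus strand): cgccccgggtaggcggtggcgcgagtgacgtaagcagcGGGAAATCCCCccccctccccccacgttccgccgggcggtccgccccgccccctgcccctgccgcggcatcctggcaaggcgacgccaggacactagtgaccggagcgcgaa
Rela (chr19:5637411-5637560, plus strand): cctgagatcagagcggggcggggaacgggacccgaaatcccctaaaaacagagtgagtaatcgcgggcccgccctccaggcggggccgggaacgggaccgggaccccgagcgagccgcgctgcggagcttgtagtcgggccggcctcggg
Nfkbia (chr12:55492628-55492777, minus strand): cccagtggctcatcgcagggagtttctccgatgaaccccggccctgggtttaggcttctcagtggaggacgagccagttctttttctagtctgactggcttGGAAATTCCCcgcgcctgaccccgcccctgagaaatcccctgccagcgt
Nfkbib (chr7:28766625-28766774, minus strand): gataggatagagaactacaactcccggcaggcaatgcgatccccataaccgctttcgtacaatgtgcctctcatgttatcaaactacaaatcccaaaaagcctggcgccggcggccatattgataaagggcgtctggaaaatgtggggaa
Nfkbie (chr17:45555570-45555719, plus strand): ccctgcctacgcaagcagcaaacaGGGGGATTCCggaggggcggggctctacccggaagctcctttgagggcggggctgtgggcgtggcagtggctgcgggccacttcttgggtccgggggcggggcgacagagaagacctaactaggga
Bcl3 (chr7:19822736-19822885, minus strand): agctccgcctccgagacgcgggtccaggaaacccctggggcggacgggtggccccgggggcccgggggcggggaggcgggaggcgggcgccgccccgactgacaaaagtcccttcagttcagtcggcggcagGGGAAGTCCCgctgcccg
The consensus occurred in windows of 5 of these 7 genes, compared with 9.55% of the 27025 genes with a window (8.46% of 32851 windows). The Nfkb2 window shown had matches from position -39 and from position -11. The match of Nfkbia began at -29, that of Rel at -92 and that of Nfkbie at -106, whereas that of Bcl3 lay just downstream of the start, from 3 to 12. Neighbouring matches in Rel and in Nfkb2 overlap, and the windows of the other annotated Nfkb2 starts also held matches. The windows of Rela and Nfkbib held no match to these letters. A match is a description of the sequence and not evidence of binding.

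All 10 transcripts were higher in LPS than in untreated BMDMs, and for none of them did the groups overlap. The increases ranged from 2.19-fold for Rela to 44.1-fold for Nfkbiz, with a median of 8.01-fold. The cut-offs of this comparison were a log2 fold change of 2 or more in either direction and an adjusted p under 0.01. By them, 9 of the 10 were called higher and Rela was not. Among all genes tested 3.72% were called higher and 2.37% lower. At an adjusted p under 0.01 alone all 10 were higher, against 16.2% of all genes (60.1% were lower), and 20.1% of all genes were higher with no overlap between the groups. The median log2 fold change was 2.96 for the 10 transcripts and -0.48 for all genes tested. TPM sum to the same total in each library, so that an increase in abundant genes lowers the values of all others by construction. When libraries were scaled instead by the median ratio across genes, the median of all genes was -0.01, which this scaling sets near 0 by construction. The median of the 10 transcripts moved to 3.48 and the share of calls that were higher from 61.1% to 83.7%. The same 9 members were called.

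The subunits with a transactivation domain are Rela (p65), Rel (c-Rel) and Relb. Rela (chr19:5637483-5648130 in GRCm38), the partner of p50 in the prototypical dimer, was the most abundant member in untreated BMDMs, at 143.3 and 144.2 TPM. It was at 307.5 and 320.9 TPM in LPS and at 300.5 and 291.7 TPM in Met + LPS. Both untreated libraries lay below the 4 stimulated ones, and Rela rose by 1.12 ± 0.04 on the log2 scale (SE, limma adjusted p = 5e-07), which was the smallest increase of the 10.

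Rel (chr11:23736847-23770970), a subunit prominent in lymphoid and myeloid cells, was at 34.2 and 32.3 TPM in untreated libraries. It reached 233.4 and 233.3 TPM with LPS and 227.2 and 216.0 TPM with Met + LPS. The LPS libraries were all above the untreated ones, with a log2 fold change of 2.77 ± 0.04 (SE, limma adjusted p = 2.2e-08). Relb (chr7:19606217-19629438), the main partner of p52 in the non-canonical pathway, was the least abundant subunit in all 3 groups. Its levels were 24.0 and 26.0 TPM in untreated, 147.1 and 155.0 TPM in LPS and 120.2 and 120.4 TPM in Met + LPS libraries. The 3 groups did not overlap, and the LPS increase was 2.55 ± 0.05 on the log2 scale (SE, limma adjusted p = 5.7e-08).

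Nfkb1 and Nfkb2 encode the precursors p105 and p100, which act as IκB-like inhibitors until they are processed to p50 and p52. Nfkb1 (chr3:135584655-135691547) was at 35.5 and 37.7 TPM in untreated, 220.8 and 218.3 TPM in LPS and 176.0 and 172.8 TPM in Met + LPS libraries. Nfkb2 (chr19:46304737-46312090) was at 71.9 and 73.6 TPM in untreated, 633.9 and 676.2 TPM in LPS and 537.8 and 546.8 TPM in Met + LPS libraries. In both genes the Met + LPS libraries fell between the other groups, with no overlap. With LPS, Nfkb1 rose by 2.55 ± 0.04 and Nfkb2 by 3.15 ± 0.04 on the log2 scale (SE, limma adjusted p = 2.2e-08 and 1e-08). Nfkb2 thereby passed Rela as the most abundant subunit transcript. Its exons share 299 bases (6.52%) with those of Psd on the opposite strand, which was at 2.12 to 16.6 TPM, and 531 bases (11.6%) with an antisense gene that the table does not list. The kit is not stated to keep strand, so that reads there cannot be assigned.

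The cytoplasmic inhibitors rose over a wide range. Nfkbia (chr12:55489410-55492647) encodes IκB-α, the inhibitor that is degraded and resynthesised within the first hours of a response. It was at 99.2 and 99.6 TPM in untreated libraries, at 2633 and 2764 TPM in LPS and at 2429 and 2334 TPM in Met + LPS. It ranked 48th and 50th of all listed genes in the LPS libraries, and the LPS increase was 27.1-fold (log2 4.75 ± 0.04, SE, limma adjusted p = 1.7e-09). Nfkbie (chr17:45555703-45563169), which encodes IκB-ε, went from 17.9 and 19.1 TPM to 400.9 and 420.8 TPM with LPS and was at 312.8 and 314.6 TPM in Met + LPS. The 3 groups did not overlap, and the LPS increase was 22.2-fold (log2 4.40 ± 0.04, SE, limma adjusted p = 3.2e-09).

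Nfkbib (chr7:28758251-28767512) encodes IκB-β, an inhibitor with slower turnover. It was at 41.9 and 39.8 TPM in untreated libraries and at 213.9 and 235.8 TPM in LPS, and its 218.3 and 222.0 TPM in Met + LPS lay between these LPS values. The LPS increase was 5.50-fold (log2 2.43 ± 0.05, SE, limma adjusted p = 1.1e-07), the smallest of the inhibitors. Its exons share 42 bases (1.94%) with those of Sirt2 on the opposite strand, which was at 104.1 to 136.9 TPM. They share 314 bases (14.5%) with those of Ccer2, which was listed at 0 in every library.

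The nuclear IκB proteins had the lowest levels of the 10 in untreated BMDMs. Nfkbiz (chr16:55811375-55838899) encodes IκB-ζ, which is needed for a subset of secondary LPS response genes such as Il6. It was at 15.3 and 15.6 TPM in untreated libraries, at 683.5 and 680.6 TPM in LPS and at 813.4 and 768.0 TPM in Met + LPS. It was the only member that was higher in both Met + LPS libraries than in both LPS libraries, and its LPS increase was the largest of the 10, at 44.1-fold (log2 5.37 ± 0.04, SE, limma adjusted p = 1.2e-09). Bcl3 (chr7:19808462-19822770), whose protein stabilises p50 homodimers on DNA, was at 14.6 and 16.1 TPM in untreated libraries and at 240.8 and 264.5 TPM in LPS. In Met + LPS it was at 133.5 and 134.4 TPM, well apart from both other groups. The LPS increase was 16.5-fold (log2 3.96 ± 0.06, SE, limma adjusted p = 2.3e-08). Bcl3 shares 161 exon bases (6.51%) with Gm16175 on the opposite strand, which was at 0 to 9.39 TPM.

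**Figure D1:**
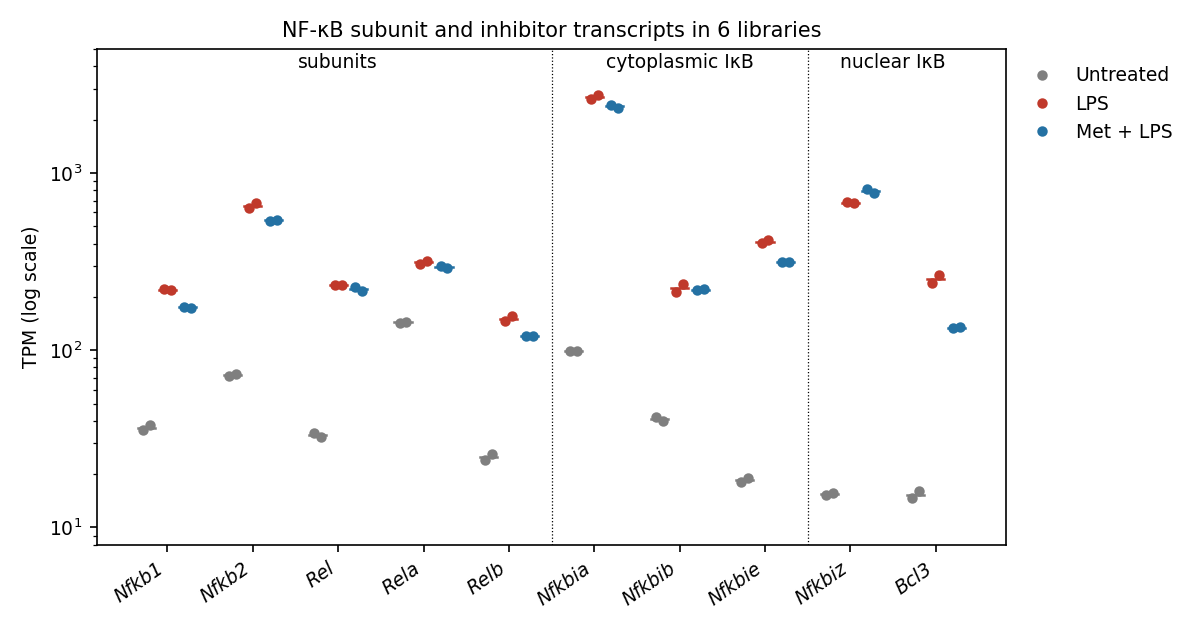
TPM of the 10 transcripts in each of the 6 libraries on a log axis, with points for libraries, short lines for the mean of 2 libraries and colours for the groups. All 10 were higher in the 4 stimulated libraries than in the untreated ones, Bcl3 fell from about 253 to 134 TPM between LPS and Met + LPS, and Nfkbiz was above its LPS level in both Met + LPS libraries.

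The order of the levels differed between the groups. In untreated BMDMs it ran from Rela at a mean of 143.7 TPM through Nfkbia, Nfkb2, Nfkbib, Nfkb1, Rel, Relb and Nfkbie to Nfkbiz at 15.5 and Bcl3 at 15.3 TPM, and only these last neighbours overlapped. With LPS it ran from Nfkbia at 2699 TPM through Nfkbiz, Nfkb2, Nfkbie, Rela, Bcl3, Rel, Nfkbib and Nfkb1 to Relb at 151.1 TPM. Nfkbib overlapped there with both of its neighbours, Rel and Nfkb1. In Met + LPS the order was that of LPS except that Bcl3 moved down below Nfkb1, and Rel and Nfkbib overlapped.

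Next, the effect of metformin pretreatment on the LPS-stimulated levels was examined. Bcl3 was lower in Met + LPS than in LPS by 47.0%, and it was the 1 member of 10 past both cut-offs of this comparison, a log2 difference of 0.7 or more in either direction and an adjusted p under 0.01. Of all genes tested, 8.28% were past both, 4.09% lower and 4.19% higher. At an adjusted p under 0.01 alone, 7 of the 10 differed, 6 lower and 1 higher, where 32.6% of all genes did so, 18.0% lower and 14.5% higher. The groups did not overlap for 9 of the 10, 8 of them lower, which was the case for 73.8% of all genes (40.0% lower). The median log2 fold change was -0.23 for the 10 transcripts and -0.03 for all genes tested. Except for Bcl3, each change was smaller than 0.4 on the log2 scale.

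Bcl3 fell by 0.91 ± 0.06 on the log2 scale (SE, limma adjusted p = 8.4e-05), with a 95% confidence interval of -1.06 to -0.76, and was 313th from the lowest of the 12755 genes tested. Nfkbie fell by 0.39 ± 0.04 (limma adjusted p = 0.00057), a reduction of 23.6%. Nfkb1 and Relb fell alike, by 0.33 ± 0.04 and 0.33 ± 0.05 (limma adjusted p = 0.0008 and 0.00213), which is 20.6% and 20.4% below LPS. In all 4 genes both Met + LPS libraries were below both LPS libraries.

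Nfkb2 fell by 0.27 ± 0.04 on the log2 scale and by 17.2% (limma adjusted p = 0.00185). Nfkbia fell by 0.18 ± 0.04 and by 11.8% (limma adjusted p = 0.00775). Nfkbiz rose by 0.21 ± 0.04 and by 15.9% (limma adjusted p = 0.00405). The calls at an adjusted p under 0.01 held in every alternative fit for Nfkb1, Nfkbie and Bcl3. That of Nfkbia was lost when any 1 of the 6 libraries was left out (limma adjusted p of 0.0105 to 0.0447), and also with the replicate number as a block (0.0133), with median-ratio scaling, without the filter, with the compared groups only and without a trend in eBayes (up to 0.0377). That of Nfkbiz was lost in 5 of the 6 fits without a library (limma adjusted p of 0.0059 to 0.0245 over the 6), and also without the filter, with the compared groups only and without a trend. That of Nfkb2 was lost when either Met + LPS library was left out, with the compared groups only and without a trend. That of Relb was lost when LPS replicate 2 or either Met + LPS library was left out and without a trend.

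For 3 members no difference passed the adjusted p cut-off. Rela was at -0.09 (95% confidence interval -0.17 to -0.00035, limma adjusted p = 0.0899). Rel was at -0.07 (95% confidence interval -0.18 to 0.03, limma adjusted p = 0.198), and Nfkbib at -0.03 (95% confidence interval -0.16 to 0.10, limma adjusted p = 0.691). For Rela and Rel both Met + LPS libraries were below both LPS libraries, as for 40.0% of all genes, while Nfkbib overlapped. A reduction of the size found for Nfkbie or Bcl3 lies outside all 3 intervals. For Nfkbib the direction depended on LPS replicate 2, since without it the log2 difference was 0.04.

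**Figure D2:**
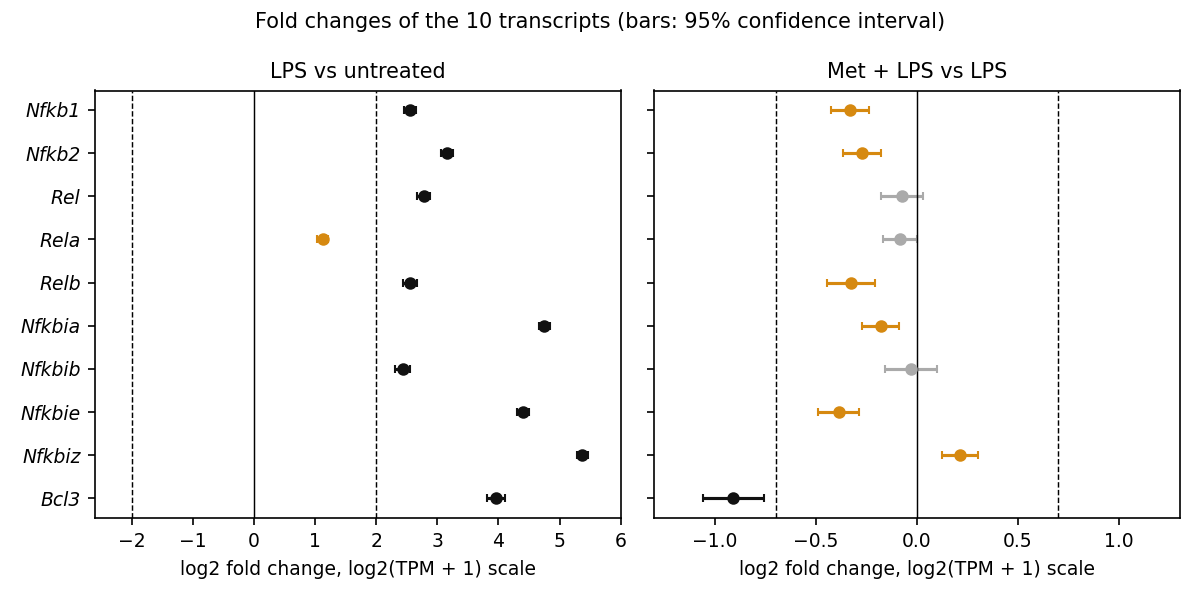
Log2 fold changes of the 10 transcripts for LPS vs untreated (left) and Met + LPS vs LPS (right), with 95% confidence intervals as bars and the fold cut-offs as dashed lines. The x axes differ in range. Black points passed both cut-offs, orange ones an adjusted p under 0.01 only and grey ones neither. On the right Bcl3 alone lies beyond the cut-off, at -0.91, and Nfkbiz alone is above 0 with an adjusted p under 0.01.

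Compared with untreated BMDMs, the Met + LPS libraries showed the induction of 9 of the 10 members at the cut-offs of the LPS comparison, against 3.18% of all genes called higher and 2.16% lower. Rela was at a log2 fold change of 1.04 and was not called. The comparisons share libraries, so that their values are set side by side without a test of overlap. The share of the log2 LPS increase that was left in Met + LPS had a median of 91.9%. It was 77.1% for Bcl3, 87.1% for Nfkb1, 87.2% for Relb, 91.2% for Nfkbie, 91.4% for Nfkb2 and 92.4% for Rela. It was 96.2% for Nfkbia, 97.3% for Rel, 98.8% for Nfkbib and 104.0% for Nfkbiz. This share depends on the size of the LPS increase, so that its order is not that of the differences from LPS. Rela, with the smallest increase, was only 5.76% below LPS, whereas Nfkbie with a similar share was 23.6% below. Between same-numbered libraries the share of Rela was 97.0% and 88.0%, so that its place in the order is not settled. Bcl3 with metformin was still 8.75-fold above the untreated level, and Nfkbiz was 51.1-fold above it.

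Shares and ratios within a library do not depend on how libraries are scaled. With 2 libraries against 2 a two-sided exact permutation test allows no p below 1/3, and these values were not tested. In untreated BMDMs Rela made up 45.9% and 46.4% of the summed subunit TPM. With LPS it made up 19.9% and 20.0%, and in Met + LPS 21.6% and 22.1%. The share of Rela was thus lower in every stimulated library, and it was slightly higher in Met + LPS than in LPS. Nfkb2, which encodes p100, took the opposite course, from 23.4% in untreated to a mean of 41.6% in LPS and 40.0% in Met + LPS. The means of Nfkb1 were 11.8%, 14.0% and 12.9% in the same order, those of Rel 10.7%, 14.8% and 16.4%, and those of Relb 8.02%, 9.60% and 8.88%.

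The summed TPM of the cytoplasmic inhibitors was 0.505 and 0.515 times that of the subunits in untreated BMDMs. It was 2.11 and 2.13 times in LPS and 2.13 and 2.17 times in Met + LPS. The ratio was thus higher in every stimulated library, and the ranges of the stimulated groups overlapped. Within the inhibitors the share of Nfkbia rose from a mean of 62.6% to 80.9% with LPS and was 81.7% in Met + LPS, while that of Nfkbib went from 25.7% to 6.74% and 7.55%. The share of Nfkbie was 11.6% in untreated, 12.3% in LPS and 10.8% in Met + LPS.

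The transcripts of the nuclear IκB proteins parted in both steps. Nfkbiz TPM was 0.973 and 1.05 times that of Bcl3 in untreated libraries, 2.57 and 2.84 times in LPS, and 5.71 and 6.09 times in Met + LPS. No ratio of a group overlapped with that of another. By contrast, the ratio of Rel to Rela had a mean of 0.232 in untreated, 0.743 in LPS and 0.748 in Met + LPS, and the ranges of the stimulated groups overlapped. The ratio of Nfkb2 to Nfkb1 was 1.99 in untreated, 2.98 in LPS and 3.11 in Met + LPS on average, again with overlap between the stimulated groups.

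**Figure D3:**
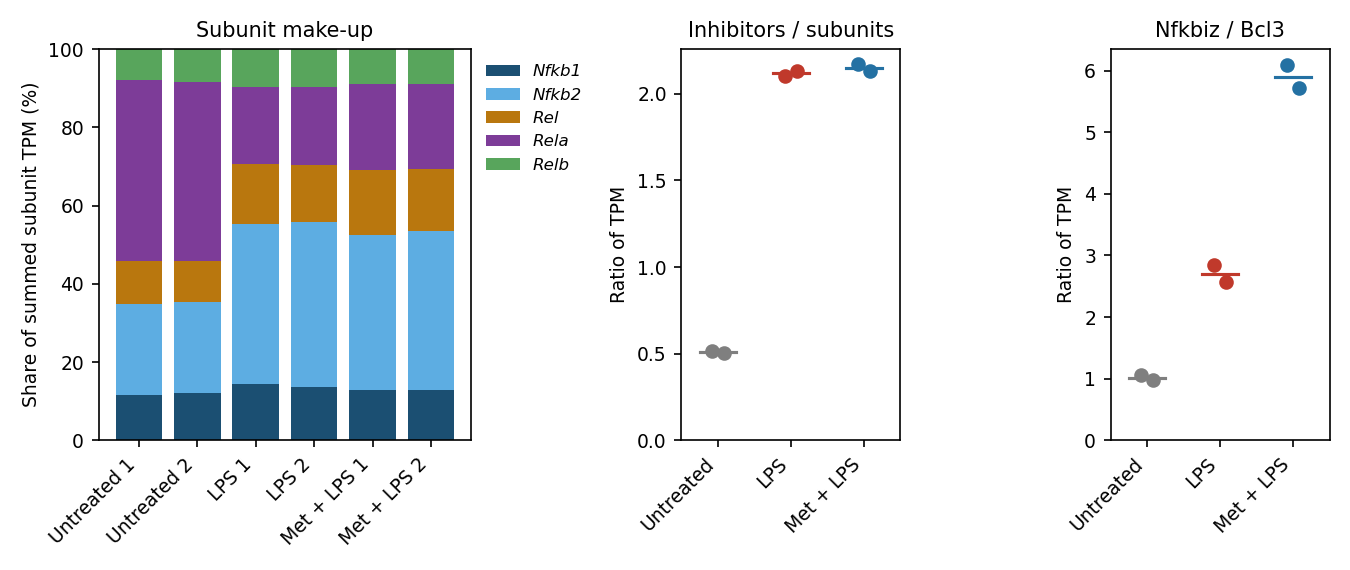
Left, share of each subunit in the summed subunit TPM per library, as stacked bars. Middle and right, TPM of the summed cytoplasmic inhibitors over the summed subunits, and of Nfkbiz over Bcl3, with points for libraries and lines for the mean of 2. The share of Rela goes from about 46.2% to 20.0% with LPS, the inhibitor ratio is near 2.12 and 2.15 in the stimulated groups, and the ratio of Nfkbiz to Bcl3 goes from 1.01 to 2.71 and 5.90.

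The genes with the most similar profiles were found by the Euclidean distance between the 6 centred log2(TPM + 1) values, as a description over 6 libraries. Nfkb1 and Relb were each other's nearest gene of all those tested (distance 0.07), and Dtx3l and Junb were next for both. Nearest to Nfkb2 were Klf7, Gm8995 and Rnd3 (0.09 to 0.12), to Rel Plek, Stk40 and Cd44 (0.05 to 0.14), and to Rela Hif1a, Clcn5 and Rap1b (0.09 to 0.10). Among the inhibitors, Nfkbia was nearest to Irf1, Ifit3 and Gbp7 (0.11 to 0.22), Nfkbie to C3, Stx11 and Nod2 (0.13 to 0.18), and Nfkbib to Plscr1, Rtp4 and Pla1a (0.15 to 0.18). Nfkbiz was nearest to Clec4e, Calhm6 and Csrnp1 (0.12 to 0.25). Bcl3 had the most distant neighbours, Igtp, Il15 and Hspa1b (0.22 to 0.30). Igtp, an interferon-inducible GTPase, was at 453.2 and 483.4 TPM in LPS and at 275.8 and 281.5 TPM in Met + LPS. That Igtp dropped in the same libraries as Bcl3 follows from its choice by distance over these libraries.

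The 10 transcripts were then set beside 31 other components of the pathway (kinases, adaptors, ubiquitin ligases and deubiquitinases, and further IκB proteins), all of which were tested. With LPS, 5 of the 31 were past both cut-offs higher and 1 lower, where 3.72% of all genes were higher and 2.37% lower, and the median log2 fold change was 0.41. At an adjusted p under 0.01 alone 17 were higher and 10 lower, and 4 did not pass, where 16.2% of all genes were higher and 60.1% lower. With median-ratio scaling 22 were higher and 4 lower at this adjusted p, and 30.6% of all genes were higher and 27.6% lower. The largest increase was that of Tnfaip3 (A20), a deubiquitinase that ends NF-κB signalling, from 13.7 and 13.6 to 1435 and 1423 TPM (log2 6.61). Traf1, an adaptor, rose by 3.96, Map3k8 by 2.79, Birc3 (cIAP2), a ubiquitin ligase, by 2.40 and Tnip1, which binds A20, by 2.18 on the log2 scale. Tab1, an adaptor of the kinase TAK1, was lower in LPS, at 5.16 and 5.06 TPM against 34.3 and 35.9 TPM in untreated libraries.

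In Met + LPS compared with LPS, 1 of the 31 components was past both cut-offs, where 8.28% of all genes were. This was Map3k8 (Tpl2), a kinase that is held inactive in a complex with p105, the product of Nfkb1. It was at 130.5 and 135.6 TPM in LPS and at 69.0 and 69.1 TPM in Met + LPS, and fell by 0.94 ± 0.06 on the log2 scale (SE, limma adjusted p = 5.8e-05). At an adjusted p under 0.01 alone 3 components were higher and 14 lower, and 14 did not pass, where 14.5% of all genes were higher and 18.0% lower. The median log2 fold change was -0.07. Compared with untreated BMDMs, 3 components were called higher and 1 lower in Met + LPS, where 3.18% of all genes were higher and 2.16% lower.

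Of 32 textbook NF-κB target genes, 31 were tested and Csf3 did not pass the filter. With LPS, 30 of the 31 were past both cut-offs, all of them higher, where 3.72% of all genes were, with a median log2 fold change of 6.02. The exception was Plau, at 163.9 and 146.5 TPM in untreated and 131.6 and 124.9 TPM in LPS libraries. The list was chosen with earlier results of these data known, and some of its genes passed the filter only through stimulated libraries. Csf2, for example, was at 0 TPM in both untreated libraries. The list also holds Il1b, Il10, Ifnb1 and Tnf, whose change with metformin the authors had already reported. The count of 30 of 31, and the counts for metformin that follow, are thus descriptions and not tests. In Met + LPS compared with LPS, 15 of the 31 were past both cut-offs, 6 higher and 9 lower, where 4.19% of all genes were higher and 4.09% lower. The median was -0.11 and the range -1.42 to 2.11 on the log2 scale. At an adjusted p under 0.01 alone 9 were higher and 14 lower, and 8 did not pass, where 14.5% of all genes were higher and 18.0% lower.

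The 3 highest target genes in this comparison were Ifnb1, Il23a and Cxcl2, which encode interferon-β, the p19 chain of IL-23 and a neutrophil chemokine. Ifnb1 was at 147.8 and 182.2 TPM in LPS and 738.3 and 685.8 TPM in Met + LPS (log2 fold change 2.11). Il23a rose by 1.68 and Cxcl2 by 1.42 on the log2 scale. The 3 lowest were Saa3, an acute-phase protein, Nos2, the inducible nitric oxide synthase, and Il10, an anti-inflammatory cytokine. Saa3 fell by 1.42, Nos2 by 1.40 and Il10 by 1.25 on the log2 scale.

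**Figure D4:**
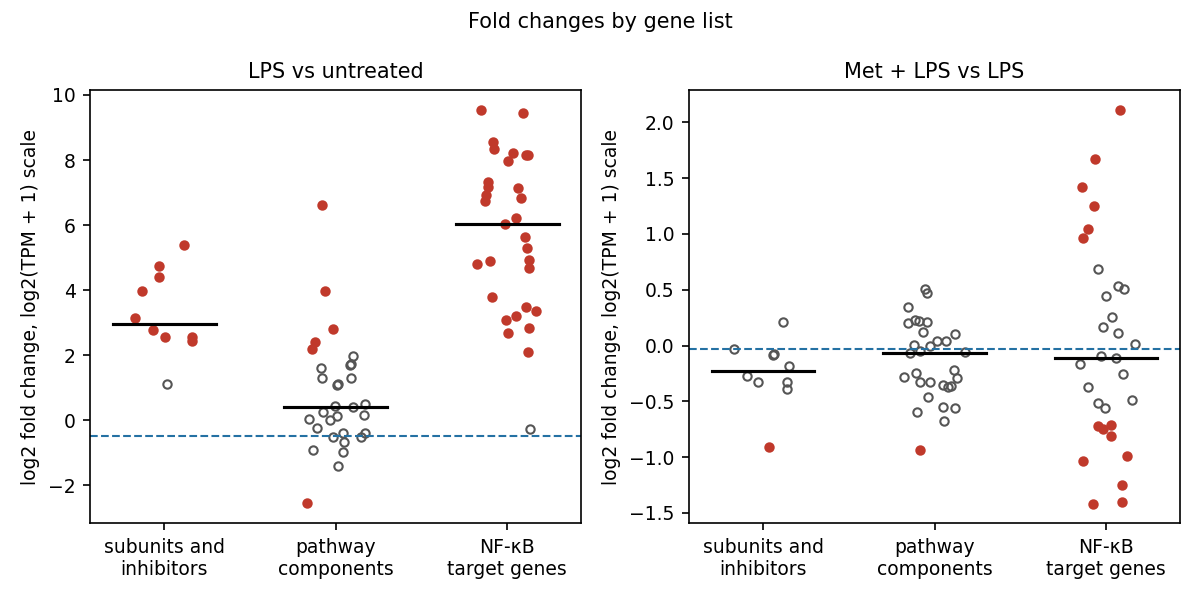
Log2 fold changes for LPS vs untreated (left) and Met + LPS vs LPS (right) of the 10 subunits and inhibitors, 31 pathway components and 31 tested target genes. Each point is a gene, filled red where it passed both cut-offs, black lines are list medians and the dashed blue line is the median of all genes tested. On the right the target genes spread from -1.42 to 2.11, and 1 subunit or inhibitor, 1 component and 15 target genes are past both cut-offs.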

How the data were processed

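RNA-seq was done on poly-A RNA of 6 BMDM libraries. Reads were aligned to GRCm38 with STAR 2.6.1d and counted with featureCounts (Subread 1.6.3), as named in the submitters' processing notes, and the authors deposited TPM per gene, computed from unpooled libraries. How counts became TPM is not given in the sources used here. The authors tested counts with DESeq2, whereas TPM are not counts and were tested here with limma 3.58.1 (R 4.3.3; lmFit, eBayes with trend) on log2(TPM + 1), in a common fit of the 6 libraries with 3 residual degrees of freedom and Benjamini-Hochberg adjustment over 12755 genes. This scale understates changes of low genes. Cut-offs are those of the study. Exon lengths of the GENCODE annotation (54495 genes matched) turned 96.0% to 96.2% of TPM above 0 into whole reads (within 0.01 read), 274 to 34110 per library for the 10 transcripts. Those of Rela and Nfkb2 were approximate, because their exon lengths gave no whole multiples. Those reads served for an alternative test (limma voom, 12750 genes). Named genes were the 10 members, components past both cut-offs, the 3 highest and 3 lowest called targets, and the 3 nearest genes of each member. The members and lists were chosen with earlier results of these data known. The fit was also run on simulated data. Few genes changed there, in balanced directions, unlike in LPS vs untreated, so that run does not vouch for the calls here. Python 3.11.15 was used for tables.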

Additional observations from a re-analysis of the deposited data

How the results depend on the processing

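In LPS vs untreated and in Met + LPS vs untreated, every member kept its direction and its call at an adjusted p under 0.01 in all alternatives run (pseudocount, filters, scaling, groups fitted, replicate block, trend, voom on reads, and each library left out), and Rela too passed both cut-offs with a log2 cut-off of 1. Over all single-gene results, 452 values kept direction and call, 27 lost the call and 1 reversed. The reversal was Nfkbib in Met + LPS vs LPS, at 0.041 without LPS replicate 2 (-0.10 to 0.041 over the libraries left out). All 27 losses were in Met + LPS vs LPS, for Nfkbia, Nfkbiz, Nfkb2 and Relb. The pooled 452 includes both comparisons with untreated BMDMs, where no call was lost, and so says little about the metformin effects. In Met + LPS vs LPS, the number of members at an adjusted p under 0.01 (7) was 4 with only the compared groups fitted, 3 without a trend in eBayes and 3 to 5 with 1 library left out. The share of all genes at that adjusted p went from 32.6% to 20.9%, 25.0% and 20.1% to 21.6%, so that 3 of 10 without a trend is near the share of all genes. Without Met + LPS replicate 1 it was 3, and without LPS replicate 2 or Met + LPS replicate 2 it was 4. With the replicate number as a block it was 6 (31.0% of all genes), without Nfkbia. The number of members stayed at 7 with a filter of at least 5 TPM in at least 2 libraries and with voom on reads. The share of all genes was higher in these 2 fits, at 45.7% and 41.7%. Deviations of same-numbered libraries were nearly uncorrelated (-0.00 to 0.03), which cannot show whether the libraries were paired. In this balanced design the block leaves the fold changes as they were, with a member median of -0.23 in both fits. With a log2 cut-off of 1, the members past both cut-offs in this comparison went from 1 to 0, the components from 1 to 0 and the targets from 15 to 9. Without Met + LPS replicate 1 the components numbered 2 (1 to 2 over the libraries left out). The components called in LPS vs untreated (6) numbered 10 with median-ratio scaling, 10 with voom and that scaling, and 15 with a cut-off of 1. In Met + LPS vs untreated (4) they numbered 8, 8 and 12. The cause of these changes was not tested, apart from the cut-offs and the fewer libraries that define them. Each member had at least 274 reads per library, and 2 libraries per group limit all error estimates.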
